A study of Solanum lycopersicum with 24 samples.

Results

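Gene expression in anthers of Micro-Tom, a dwarf tomato cultivar, was compared at the free microspore stage and at the preceding tetrad stage, both at control temperature (CT), in 4 libraries each. These 8 libraries were chosen by their stage and temperature labels from the 24 of a study of pollen abortion under prolonged high temperature. Free microspore CT anthers were collected on day 6 and tetrad CT anthers on day 4, and polarized microspore CT anthers, used below as a later point, on day 8. All CT plants were kept at 25 °C in the light and 19 °C in the dark with 50% relative humidity, under light for 12 hours a day. The same stages and days were sampled under long-term mild heat (LTMH), where flowering plants were moved to 34 °C by day and 28 °C by night at 68% relative humidity. Each stage was collected on its own day, so stage and day cannot be told apart at either temperature. Each library was made from 6 pooled anthers taken about 5 hours into the light period. The labels give no further genotype or treatment, and they do not say that replicates were separate plants. The p-values therefore measure only the spread between these samples, which may be technical.

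In a tetrad, the haploid cells made by meiosis remain enclosed in a wall of callose, a glucan polymer. The tapetum, the secretory layer that lines the anther locule, releases enzymes that dissolve this wall and so free the microspores. It also supplies nutrients and precursors of the outer pollen wall, and it later degenerates by programmed cell death. An anther library mixes meiotic products, tapetum, outer wall layers and vascular tissue. In such bulk samples, fewer cells of a type and less RNA per cell cannot be told apart.

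The 8 libraries held between 15740457 and 18275044 reads assigned to genes. Totals ranged from 16049773 to 18275044 reads at free microspore CT and from 15740457 to 17565804 at tetrad CT, with an adjusted p of 0.80 for the difference of means (two-sided exact permutation test, n = 4 each, 3 tests, smallest unadjusted p possible 0.0286). At least 1 read was found for 23952 to 24762 genes in free microspore CT libraries and for 24443 to 24917 in tetrad CT libraries. The closest libraries of a group were tetrad CT replicates 1 and 2, whose counts differed by a chi-square of 4.43 per degree of freedom, against 35.7 to 52.5 for the other tetrad CT pairs and 36.2 to 136 for the free microspore CT pairs. This pair still differed by more than sampling noise and was counted as 2 libraries, but the labels do not say whether both came from 1 source. With their counts summed into 1 library, the main comparison below called 7234 genes in place of 8725. The gene identifiers were not paired with names in any source used here, so gene families, pathways and cell type markers could not be assigned, and the labelled tissue and stages were not checked against markers.

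Between the tetrad and the free microspore stage, 8725 of the 21429 genes tested changed, which is 40.7% (edgeR quasi-likelihood test, adjusted p below 0.05 by Benjamini-Hochberg, no minimum fold). Of these, 4100 genes were higher at free microspore CT, 19.1% of those tested, and 4625 were lower, 21.6%. All 4 free microspore CT values lay above all 4 tetrad CT values in 2806 genes (13.1%) and below them in 4166 genes (19.4%). Higher genes made up 47.0% of the calls with TMM scaling, which sets libraries level by the trimmed mean of gene ratios. They made up 60.1% with upper-quartile scaling and 58.7% with limma on log2(FPKM + 1), FPKM being the deposited level per gene length and library size. Upper-quartile scaling gave 5814 genes higher and 3867 lower, and it placed the median log2 change of all tested genes at 0.12, against 0.02 with TMM scaling. Which direction held more genes therefore depended on the scaling, while no gene called in the main test was called in the opposite direction under any alternative.

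The falls were mostly larger than the rises. The median log2 change was -0.90 among the lower genes and 0.47 among the higher genes. A fall of at least 2-fold was seen in 2049 genes, 44.3% of those that fell, and a rise of at least 2-fold in 888 genes, 21.7% of those that rose. At 4-fold or more there were 802 genes lower and 366 higher. With limma on log2(FPKM + 1), a scale that understates the change of low genes, these counts were 432 lower and 173 higher. The order turned at the extremes, where 107 genes rose and 53 fell by at least 16-fold, and 46 rose and 17 fell by at least 32-fold. These extreme counts rested on single libraries. Without free microspore CT replicate 2, 380 genes in place of 165 fell by at least 8-fold, 167 by at least 16-fold and 96 by at least 32-fold. Without tetrad CT replicate 4, 282 genes in place of 179 rose by at least 8-fold, 176 by at least 16-fold and 109 by at least 32-fold. Leaving out free microspore CT replicate 2 thus also turned the order at 16-fold back, as 107 genes still rose. Other single libraries moved the smallest classes. The genes that fell at least 32-fold numbered 9, 10 and 26 without tetrad CT replicates 1, 2 and 3, those that fell at least 16-fold numbered 34 without tetrad CT replicate 1, and those that fell at least 8-fold numbered 106 without free microspore CT replicate 4. A rise of at least 32-fold was found in 29 genes without free microspore CT replicate 3.

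Many of the genes that rose most were scarce at tetrad CT. Of the 366 genes at least 4-fold higher, 190 averaged less than 1 CPM (counts per 1e6 scaled reads) at tetrad CT, and the median level per length of the 366 was 8.05 FPKM at free microspore CT, against 0.710 FPKM at tetrad CT. The 802 genes at least 4-fold lower had a median of 2.36 FPKM at free microspore CT, against 14.2 FPKM at tetrad CT, and 266 of them had a mean below 1 CPM at free microspore CT. Complete switches, with no read in any library of a stage, were few and shallow. Any read at that stage excluded a gene, so the rule itself favoured genes with few reads. Reads appeared in all 4 free microspore CT libraries and in no tetrad CT library for 40 genes, with at most 67 reads summed over the group. The reverse held for 32 genes, with at most 37 reads summed over the tetrad CT group. Another 8049 of the 35768 listed genes had no read at either stage, which at this depth does not show that they were silent.

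The change took up a large part of the messenger RNA pool. The 4100 higher genes held 31.0, 31.6, 42.0 and 42.3% of the reads in free microspore CT replicates 1 to 4, against 17.5, 17.4, 17.8 and 22.5% in tetrad CT replicates 1 to 4. The groups do not overlap, and free microspore CT replicates 3 and 4 stand above replicates 1 and 2. The 4625 lower genes held 17.2, 21.1, 14.6 and 12.8% of the reads in the free microspore CT libraries, against 37.2, 37.6, 34.5 and 29.8% in the tetrad CT libraries. These CT shares follow from how the genes were chosen and are given as a description. Genes that were not called held 46.8 ± 3.67% of reads at free microspore CT and 46.3 ± 1.48% at tetrad CT (SD, n = 4 each).

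In the LTMH libraries, whose levels did not enter the CT fold changes, the summed shares of these genes were ordered in the same way. These libraries did enter the shared fit, through the filter, the scaling and each gene's estimate of spread, so the choice of genes was not fully independent of them. With the 8 CT libraries fitted alone, 6837 genes were called. The higher genes held 39.4, 36.7, 30.9 and 33.2% of reads in free microspore LTMH replicates 1 to 4, against 21.2, 22.5, 22.7 and 29.2% in tetrad LTMH replicates 1 to 4. The lower genes held 12.7, 15.97, 19.8 and 16.8% in the free microspore LTMH libraries, against 30.9, 26.4, 32.7 and 23.0% in the tetrad LTMH libraries. In both sets the LTMH groups do not overlap, and tetrad LTMH replicate 4 lies nearest to the free microspore libraries. The plot of read shares shows the 16 libraries side by side.

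**Figure D1:**
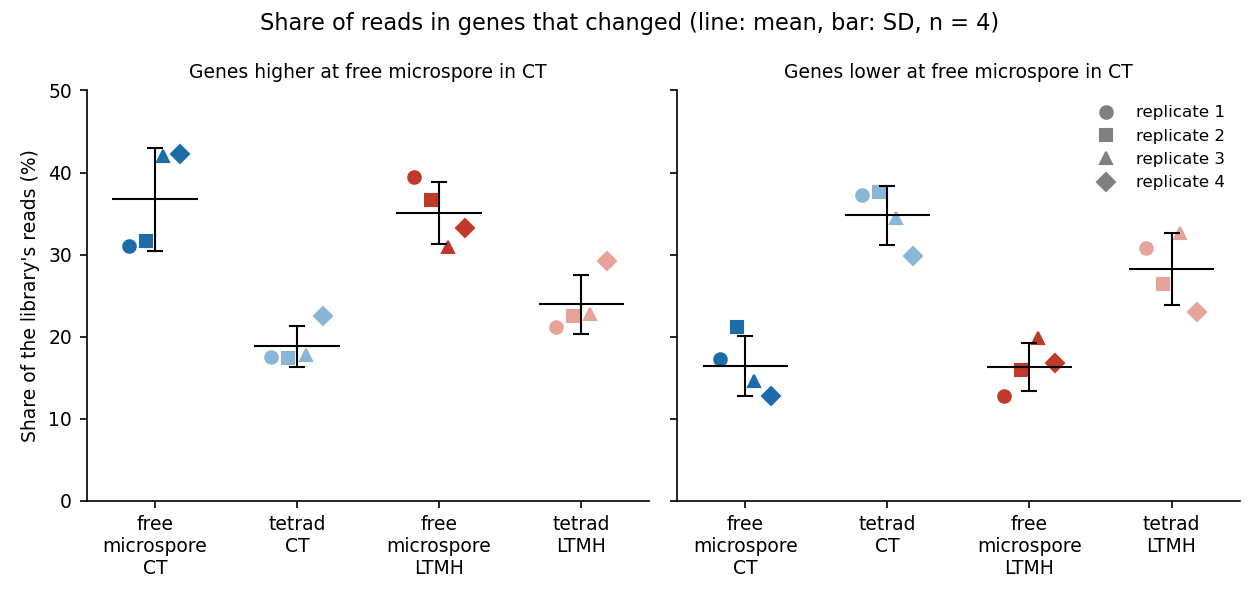
Share of each library's reads (%, y axis) in the 4100 genes higher at free microspore CT (left) and the 4625 genes lower there (right), for 4 libraries a group (symbols: replicates; line: mean; bar: SD). Free microspore libraries lie at 30.9% or more on the left and at 21.1% or less on the right at both temperatures, on the far side of every tetrad library of the same temperature.

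A part of the shift lay in a small number of very abundant genes. The higher genes gained 17.9 points of the mean read share, of which the 10 largest gains made up 36.4%, and 37 genes made up the first 50% of the gain. The lower genes lost 18.3 points, with 28.3% of the loss in the 10 largest losses and 88 genes making up the first 50%. The 10 most abundant genes at free microspore CT and the 10 most abundant at tetrad CT shared 3 genes. Of the free microspore CT list 6 genes were higher and 1 lower, and of the tetrad CT list 1 was higher and 4 lower. Each list was chosen by level in 1 of the 2 groups compared, which favours genes higher in that group. These directions are therefore only a description. Among all tested genes 19.1% were higher and 21.6% lower, and in the most abundant of 4 equal bands 25.3 and 28.6%. The 10 most abundant genes of each library nevertheless held similar shares at the 2 stages, 10.7 ± 0.831% of reads at free microspore CT and 10.9 ± 1.30% at tetrad CT (SD, n = 4 each, adjusted p 0.80, exact permutation test).

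Solyc02g078370.1, an identifier of chromosome 2, had the largest rise in CPM. It had 5897, 11265, 34990 and 26941 CPM in free microspore CT replicates 1 to 4, against 341, 396, 230 and 2488 CPM in tetrad CT replicates 1 to 4. The groups do not overlap, as the choice of the named genes required, and the highest tetrad CT value is replicate 4. The gene had a log2 change of 4.52 ± 1.11 (SE, adjusted p 0.00334, edgeR quasi-likelihood test), and without tetrad CT replicate 4 the log2 change was 5.94. By level per length it ranked first among the tested genes at free microspore CT and at place 66 at tetrad CT, and it made up 1.98% of the CPM total at free microspore CT, against 0.0863% at tetrad CT. Under LTMH it had 19167, 19132, 10831 and 7778 CPM at the free microspore stage, against 262, 198, 4507 and 10551 CPM at the tetrad stage. There the groups overlap, since tetrad LTMH replicate 4 exceeds free microspore LTMH replicate 4, and the log2 change of 1.87 ± 0.99 did not pass the test (adjusted p 0.186, edgeR quasi-likelihood test).

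Solyc02g032910.2, also of chromosome 2, had the largest fall in CPM. It had 7771, 11286, 3870 and 2199 CPM in free microspore CT replicates 1 to 4, against 21417, 20816, 27988 and 15497 CPM in tetrad CT replicates 1 to 4. It was the most abundant gene at tetrad CT both in CPM and per length, and the third per length at free microspore CT. Its log2 change was -1.77 ± 0.69 (SE, adjusted p 0.0474, edgeR quasi-likelihood test), and this call was the least firm of those on the 4 named genes. It was lost with tetrad CT replicates 1 and 2 summed (adjusted p 0.0730, same test), on leaving out tetrad CT replicate 1, 2 or 3 or free microspore CT replicate 1, 3 or 4, and with 4 other alternatives, with log2 changes between -1.49 and -1.89. The decline went on at the next stage, with a log2 change of -5.08 ± 0.80 at polarized microspore CT relative to free microspore CT (adjusted p 8.54e-05, edgeR quasi-likelihood test), a comparison that shares the free microspore CT libraries. Under LTMH, in other libraries, it had 761, 5979, 11974 and 3478 CPM at the free microspore stage and 15689, 16938, 11931 and 5837 CPM at the tetrad stage. These groups overlap, and the log2 change of -1.18 ± 0.68 did not pass the test (adjusted p 0.226, edgeR quasi-likelihood test).

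Solyc05g010760.2, of chromosome 5, had the largest log2 rise of the called genes that averaged 1 CPM or more and did not overlap between the groups. It had 1.02, 1.20, 6.76 and 6.24 CPM in free microspore CT replicates 1 to 4, against 0, 0, 0.0663 and 0 CPM in tetrad CT replicates 1 to 4. Free microspore CT replicates 3 and 4 are the high ones, and replicate 3 alone of the tetrad CT libraries held a read. Summed over the group, 258 reads stood against 1, a ratio of 235 after scaling for depth, with an exact 95% interval of 41.8 to 9325 that covers counting error only. The fitted log2 change was 7.37 ± 1.09 (SE, adjusted p 6.09e-05, edgeR quasi-likelihood test), and 9.13 without tetrad CT replicate 3, a value that is no bound since the remaining tetrad CT libraries had no read. Under LTMH the gene also rose, with 2.01, 1.81, 1.74 and 0.447 CPM in the free microspore libraries, against 0, 0, 0.150 and 0.149 CPM in the tetrad libraries (log2 change 4.19 ± 0.89, adjusted p 0.00258, same test).

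Solyc07g016055.1, of chromosome 7, had the largest log2 fall by the same rule. It had 0, 0.0633, 0.167 and 0 CPM in free microspore CT replicates 1 to 4, against 12.96, 10.95, 0.265 and 0.235 CPM in tetrad CT replicates 1 to 4. The groups do not overlap, but the high tetrad CT values are those of replicates 1 and 2, the closest pair of libraries, and replicates 3 and 4 lie just above the free microspore CT values. The fitted log2 change was -6.52 ± 1.38 (SE, adjusted p 0.00108, edgeR quasi-likelihood test), with 4 reads at free microspore CT against 358 at tetrad CT. It was -5.84 without tetrad CT replicate 1 and -7.81 without free microspore CT replicate 3. Under LTMH all 4 tetrad libraries were high, with 0.109, 0.396, 0.0561 and 0.894 CPM in the free microspore libraries, against 20.9, 4.51, 39.01 and 16.5 CPM in the tetrad libraries. There the gene fell with a log2 change of -5.74 ± 1.04 (adjusted p 0.000961, same test). Its deposited values correspond to a length of 189 bases, so it is a short gene model.

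**Figure D2:**
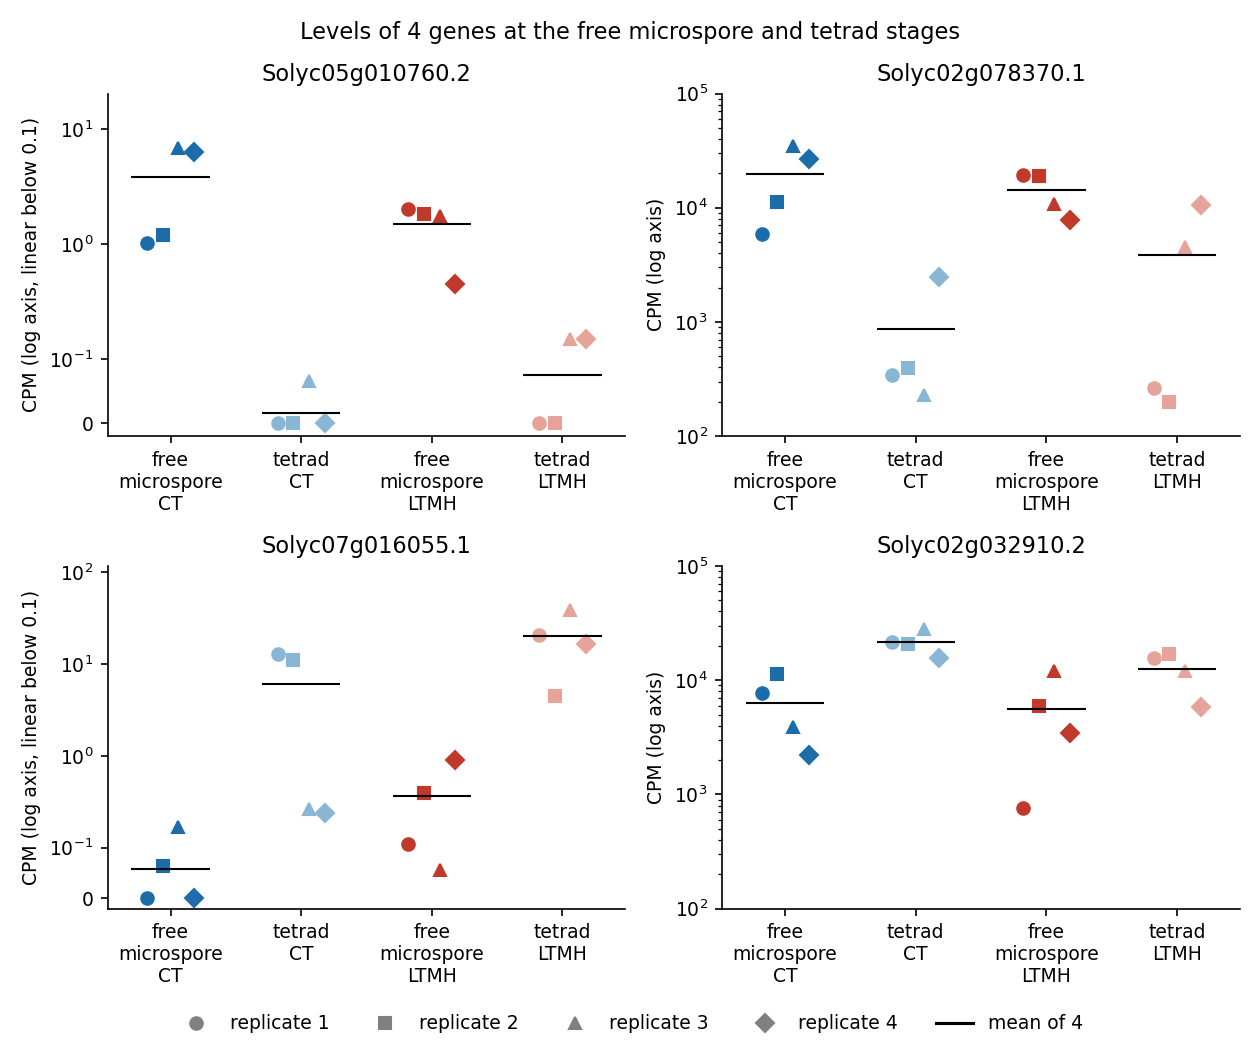
Level in CPM (y axis, logarithmic, linear below 0.1 in the left panels) of the 4 named genes in free microspore and tetrad libraries at CT and LTMH (symbols: replicates; line: mean of 4). In CT the free microspore and tetrad groups do not overlap in any panel, as the choice of these genes required. The tetrad CT points of Solyc07g016055.1 fall at 12.96 and 10.95 for replicates 1 and 2 and at 0.265 and 0.235 for replicates 3 and 4.

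The 4 free microspore CT libraries differed in how far their expression lay from the tetrad stage. Each CT library was placed on the line between the tetrad CT mean, set at 0, and the polarized microspore CT mean, set at 1, over 6094 genes that changed at least 2-fold between those stages. Tetrad CT replicates 1 to 4 lay at -0.0463, -0.0587, 0.0371 and 0.0679. Free microspore CT replicates 1 to 4 lay at 0.336, 0.236, 0.524 and 0.642, with a mean of 0.435 ± 0.183 (SD, n = 4). Polarized microspore CT replicates 1 to 4 lay at 1.02, 0.898, 1.01 and 1.07. The free microspore CT libraries did not define the line, whereas the genes were chosen for their difference between the end stages, which favours genes with little spread there. Among groups that did not define it, the positions averaged 0.163 ± 0.0858 at tetrad LTMH, 0.498 ± 0.182 at free microspore LTMH and 0.874 ± 0.0244 at polarized microspore LTMH (SD, n = 4 each). A position is a summary of expression only. No test was made, and the parts of timing, cell mixture, dissection and RNA quality in it were not tested.

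**Figure D3:**
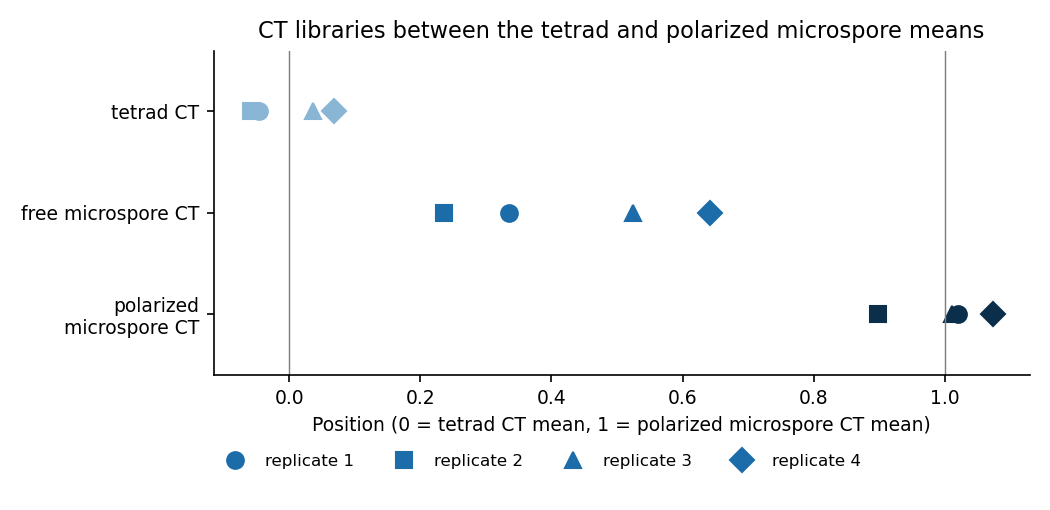
Position of the 12 CT libraries (x axis, no unit: 0 is the tetrad CT mean and 1 the polarized microspore CT mean) by stage (y axis, tetrad at the top; symbols: replicates). The free microspore CT libraries spread from 0.236 to 0.642, between the other stages.

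This spread was visible gene by gene. Of the 802 genes at least 4-fold lower, free microspore CT replicate 2 was the highest of its group in 86.0% and replicate 4 the lowest in 78.3%. Among genes that were not called, each of the 4 libraries was the highest in 21.6 to 28.4%. Of the 366 genes at least 4-fold higher, replicate 3 was the highest in 53.8% and replicate 1 the lowest in 56.3%. On the tetrad side, replicate 4 was the highest tetrad CT library in 55.5% of the genes at least 4-fold higher. Of the genes at least 4-fold lower, tetrad CT replicate 3 was the lowest in 57.2% and replicate 4 in 33.5%. Median log2 differences from the tetrad CT mean were 0.37, 0.34, 0.58 and 0.56 over the higher genes in free microspore CT replicates 1 to 4, and -0.78, -0.64, -0.97 and -1.08 over the lower genes. The sign of these medians follows from how the genes were chosen, and they are given only to show how the libraries differ. The median SD of log2 CPM within a group was 0.240 at free microspore CT, 0.198 at tetrad CT and 0.191 at polarized microspore CT.

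The same step under LTMH called fewer genes. Its groups share no library with the CT groups, but both steps come from 1 fit with a shared estimate of spread, so their calls are not independent. There, 1917 genes were higher in free microspore LTMH libraries than in tetrad LTMH libraries (8.95%) and 2651 were lower (12.4%). Of the genes higher in the CT step 33.9% were called higher in the LTMH step and 3 genes were called lower. Of those lower in the CT step 46.8% were called lower in the LTMH step and 2 were called higher. Among genes that rose at least 8-fold in the CT step, the median log2 change was 2.13 under LTMH and 4.27 at CT. Among genes that fell at least 8-fold in the CT step, the medians were -2.89 under LTMH and -3.53 at CT. The CT values chose these genes, so the smaller LTMH medians are a description.

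For genes that fell, the share called again under LTMH was 39.9% of 2576 genes below 2-fold, 52.3% of 1247 genes at 2 to 4-fold, 59.3% of 637 genes at 4 to 8-fold and 64.2% of 165 genes at 8-fold or more. For genes that rose, the shares were 31.2% of 3212, 46.2% of 522, 43.3% of 187 and 36.3% of 179 genes in the same classes. The plot of these shares places them against the LTMH share of all tested genes. The order of the rising classes depended on the method and on single libraries. DESeq2 gave 31.8, 54.2, 56.1 and 56.4%, and limma gave 27.3, 44.3, 49.2 and 62.0% on log2(FPKM + 1) and 27.2, 45.2, 49.2 and 72.1% on log2(FPKM + 0.1). Without tetrad LTMH replicate 4 the shares were 30.6, 53.1, 57.8 and 70.4%. The share of the genes that rose at least 8-fold was 8.94, 13.4 and 13.97% without tetrad LTMH replicates 1, 2 and 3, and 10.1 and 14.5% without free microspore LTMH replicates 1 and 2. The order of the upper falling classes did not hold under every alternative. The falling classes had 25.7, 41.1, 38.5 and 54.5% without tetrad LTMH replicate 3, and 32.5, 45.5, 44.7 and 56.4% without free microspore LTMH replicate 2. They had 39.6, 59.5, 68.1 and 63.0% without free microspore LTMH replicate 3. A mean of at least 1 CPM gave 43.7, 51.2, 55.4 and 53.3%, and an adjusted p below 0.01 gave 23.3, 37.4, 31.7 and 52.1%. The class below 2-fold had the smallest falling share in each of these. The 33.9% of all rising genes became 16.5, 15.3, 15.0 and 21.0% on leaving out tetrad LTMH replicate 1, tetrad LTMH replicate 3, free microspore LTMH replicate 1 and free microspore LTMH replicate 2, in that order. For all falling genes, leaving out any 1 of the 8 LTMH libraries of this step gave 32.6 to 53.3%.

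**Figure D4:**
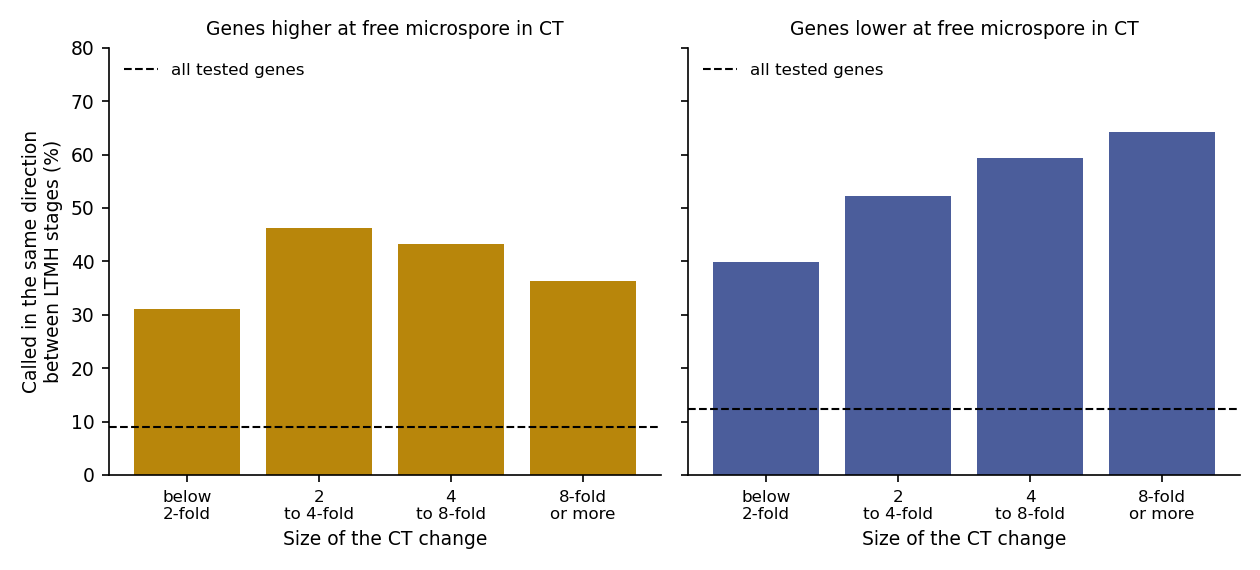
Percentage of genes (y axis) higher (left) or lower (right) at free microspore CT that were called in the same direction between the LTMH stages, by size of the CT change (x axis); dashed lines mark all tested genes, 8.95% and 12.4%. Every class lies above the line, from 31.2 to 46.2% on the left and from 39.9 to 64.2% on the right.

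The difference between the LTMH step and the CT step was tested directly for each gene. No gene passed (edgeR quasi-likelihood interaction, smallest adjusted p 0.05001). Of the 21429 genes tested, 2201 had an unadjusted p below 0.05 in this test, where a share of 0.05 is expected without any difference. DESeq2 called 105 genes and limma on log2(FPKM + 1) called 7. Without free microspore CT replicate 2 the edgeR count was 183, without tetrad LTMH replicate 1 it was 31, and without tetrad LTMH replicate 2 it was 19. It was between 1 and 7 without tetrad CT replicate 3 or 4, free microspore CT replicate 3, tetrad LTMH replicate 4 or free microspore LTMH replicate 1. The count of 0 therefore does not show that the step was alike at both temperatures.

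The genes called in the CT step were followed to the next stage under LTMH, where most were not called in either direction. From the free microspore to the polarized microspore stage under LTMH, in the same shared fit, 2598 genes were higher (12.1%) and 2975 lower (13.9%). Of the genes higher in the CT step, 21.9% were called higher again in this later LTMH step and 5.37% lower. Of the genes lower in the CT step, 25.3% were called lower again and 2.96% higher. The share called lower again was largest among genes with a CT fall of 4 to 8-fold, at 55.6%. It was 13.3% among those with a fall of 8-fold or more. DESeq2 gave 62.3 and 30.9% for these classes. These are shares of calls and do not measure the size of the decline. The median log2 change of the later LTMH step was -1.82 and -1.57 in the 2 classes. The part of low read counts in the difference between the shares was not tested. Leaving out any 1 of the 8 LTMH libraries of the later step gave 38.9 to 63.1% for the 4 to 8-fold class. For the class of 8-fold or more it gave 8.48% without free microspore LTMH replicate 4 and 31.5% without free microspore LTMH replicate 1. The 25.3% of all lower genes became 16.4% without free microspore LTMH replicate 3. In the later CT step, which shares the free microspore CT libraries, the median log2 change of these classes was -2.56 and -2.71.

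Abundant genes were called more often than scarce ones. The tested genes were cut into 4 bands of equal size by mean CPM. From the lowest to the highest band, 9.24, 17.4, 24.6 and 25.3% of genes were higher at free microspore CT and 12.8, 20.8, 24.2 and 28.6% were lower. The median size of a called log2 change fell across the same bands, at 1.59, 0.74, 0.50 and 0.49. Both measures depend on the power to call a change, which is lower at low counts. The part of this power in the 2 patterns was not tested. The recovered gene length had a median of 1668.5 bases for higher genes, 1750 bases for lower genes and 1587 bases for genes not called. The genes that changed at least 4-fold were shorter, with medians of 1472 bases for those higher and 1333.5 bases for those lower. Level and length went together. The median level was 4.83, 14.8, 19.0 and 25.8 CPM from the shortest to the longest of 4 equal bands of tested genes. The part of level in these length differences was not tested.

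Genes lower at free microspore CT were unevenly spread over the chromosomes named in their identifiers. On chromosome 1, 727 of 2746 tested genes fell (26.5%), and on chromosome 2, 597 of 2331 (25.6%), against 18.1 to 22.4% on each of chromosomes 3 to 12. The shares of genes that rose were 16.7% on chromosome 1 and 17.3% on chromosome 2, against 19.0 to 20.9% on each of chromosomes 3 to 12. The 158 tested genes with chromosome number 0, left out of these ranges and of the plot, had 15.8% higher and 15.2% lower. In the LTMH step the shares that fell were 16.5% on chromosome 1 and 14.9% on chromosome 2, against 9.55 to 13.4% on chromosomes 3 to 12. Both falling shares exceeded those of chromosomes 3 to 12 in the CT step under every alternative run, including upper-quartile scaling, with 22.9 and 21.8% against 15.1 to 18.4%. The median level was 16.6 CPM on chromosome 1 and 13.8 CPM on chromosome 2, against 13.7 to 16.3 CPM on chromosomes 3 to 12. The median length was 1693.5 bases on chromosome 1 and 1664 bases on chromosome 2, against 1579.5 to 1714 bases on the same others. Chromosome 1 thus had the highest median level, and the part of level in its share of falling genes was not tested. No test was made over chromosomes, as genes are not independent.

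**Figure D5:**
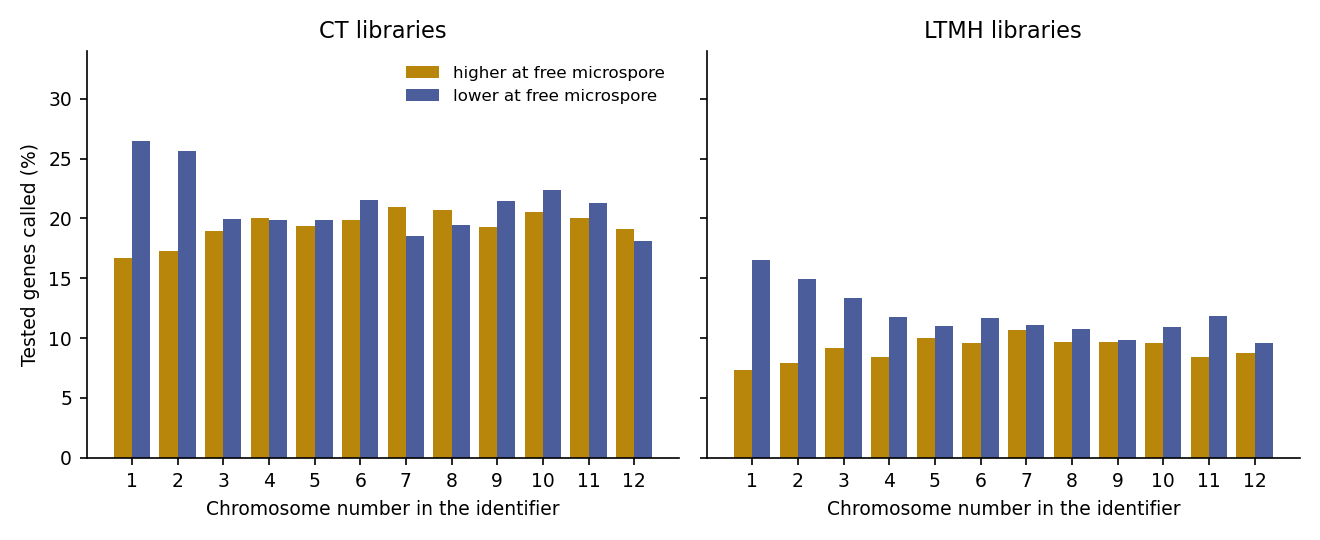
Percentage of tested genes called higher or lower at the free microspore stage than at the tetrad stage (y axis), by the chromosome number in the gene identifier (x axis), in CT (left) and LTMH (right) libraries. The bars for lower genes are tallest on chromosomes 1 and 2 in both panels, 26.5 and 25.6% in CT and 16.5 and 14.9% in LTMH.

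Within chromosome 1 the lower genes were not evenly placed either, as seen after the chromosome values were known. With its tested genes cut into 4 equal stretches in the order of identifiers, the shares that fell were 19.0, 29.5, 30.03 and 27.4%. On chromosome 2 the shares were 21.3, 23.3, 28.1 and 29.7%. Such unevenness was not particular to these chromosomes. The shares were 16.2, 28.5, 23.1 and 21.7% on chromosome 10 and 19.2, 25.2, 24.2 and 16.6% on chromosome 11. Others varied less, with 18.8 to 22.0% on chromosome 4 and 17.2 to 20.2% on chromosome 7. Neighbouring genes tended to change together. The next tested gene in identifier order was lower for 28.5% of the lower genes, against 21.6% of all tested genes, and it was higher for 22.6% of the higher genes, against 19.2% of all. At 4-fold or more, the next gene was also at least 4-fold lower for 15.1% of the lower genes, against 3.75% of all tested genes. For genes at least 4-fold higher this share was 5.80%, against 1.71% of all. The longest runs were 11 neighbouring genes that fell, on chromosome 1, and 6 that rose, on chromosome 7. Run lengths expected without any clustering were not computed, so these runs are only a description. Counts of near-identical neighbouring copies are uncertain, and the part of such copies in these shares was not tested.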

How the data were processed

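Messenger RNA of anthers was sequenced in 24 libraries in 6 groups of 4. Per the labels' protocols, a poly-A kit was used, with no statement that strand was kept, so reads of overlapping genes on opposite strands may not be told apart, and near-identical copies are uncertain. The authors deposited 2 tables, raw read counts per gene and FPKM values. TopHat2 2.0.12 and HTSeq 0.6.1 are named in the submitters' processing notes. The genome build is not given in the sources used here. Gene lengths in bases were recovered from the ratio of the deposited counts and FPKM for 29041 genes. None of the 35768 identifiers (0 matches) was found in the reference table of 41476 genes, so the planned lists and markers were not used, no gene is named and no sequence is shown.

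All 24 libraries entered 1 fit of the counts in edgeR 4.0.16 under R 4.3.3, with TMM scaling, filterByExpr (minimum count 10) and robust quasi-likelihood tests with 18 residual degrees of freedom. Benjamini-Hochberg adjustment covered the 21429 genes tested. CPM values use TMM scaling, and positions use log2 CPM with a prior count of 2. Standard errors derive from the F statistic. Library measures were compared by exact permutation over 70 arrangements. The scripts were tested on simulated counts. Alternatives used DESeq2 1.42.0, limma 3.58.1, other scalings, filters and thresholds, a replicate block and left-out libraries. Named genes are, in each direction, the called gene with the largest log2 change and the one with the largest CPM difference, restricted to genes that averaged 1 CPM or more in the 8 libraries compared and whose groups did not overlap. The comparison and lists were chosen with earlier results of these data known.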

Additional observations from a re-analysis of the deposited data

Results flagged for a closer look

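In 4 of 60 groups of 4 libraries examined, 1 library stood far from the others by Dixon's criterion, and chance alone gives about 1 group in 20. All 4 were tetrad CT groups, and 3 of them concern tetrad CT replicate 4. This library had 2487.59 CPM of Solyc02g078370.1, the next value being 395.542 CPM in replicate 2. Genes higher at free microspore CT held 22.5276% of its reads, the next value being 17.7967% in replicate 3. Genes at least 4-fold higher at free microspore CT held 1.21288% of its reads, the next value being 0.386906% in replicate 1. These measures share reads and are not separate observations. The remaining group was Solyc05g010760.2, where the 0.0662557 CPM of tetrad CT replicate 3 is 1 read and the other libraries had 0.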

How the results depend on the processing

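The log2 change of 3 of the 4 named genes kept its direction and call under all alternatives run, Solyc02g032910.2 being the exception given above. These 3 calls were weaker with the 8 CT libraries fitted alone. The adjusted p was then 0.00730 for Solyc05g010760.2, 0.0168 for Solyc02g078370.1 and 0.0302 for Solyc07g016055.1 (edgeR quasi-likelihood test). For Solyc02g032910.2 it was 0.0262 (same test), smaller than in the main fit. Stricter rules lowered the counts by construction. At an adjusted p below 0.01, 5730 genes were called in the CT step, 2387 of them higher, with 2035 in the LTMH step and 2979 in the later LTMH step. Tested against a log2 change of 1, 630 genes were called in the CT step (180 higher, 450 lower), 99 in the LTMH step and 465 in the later LTMH step. Leaving out 1 CT library at a time gave 6971 to 9067 calls in the CT step. Leaving out 1 LTMH library at a time, added after seeing the data, gave 2516 to 4923 calls in the LTMH step, the low values being 2516 and 2971 without tetrad LTMH replicates 3 and 1 and 2745 without free microspore LTMH replicate 1. The interaction between temperature and step called 0 genes in edgeR, 1 each with median-of-ratios scaling, upper-quartile scaling, no filter and a mean of at least 1 CPM, 105 with DESeq2, 7 with limma on log2(FPKM + 1), 2 with a pseudocount of 0.1, and 0 to 183 on leaving out 1 library. The cause was not tested. The number of genes with a read differed by -106.25 between free microspore CT and tetrad CT, and by -196 to 74 on leaving out 1 library, the positive value being that without free microspore CT replicate 4.

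Same-numbered libraries of the 2 stages had correlations of their deviations of 0.0881, 0.0719, 0.0398 and 0.3004. Libraries with different numbers had -0.255 to 0.153, so 0.3004 was the highest value of all. The labels do not say that equal numbers share a source, and for this reason the main fit had no replicate block. A pairing by number is not excluded by these values. A replicate block gave 8874 calls over 24 libraries, 1 gene for the interaction, and 6374 calls in the 8 libraries alone, against 6837 there without the block. Depth limits statements on scarce genes, since the 5358 scarcest tested genes had a median level of 1.13 CPM.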
